A study of Mus musculus with 6 samples.

Results

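Cullin-RING ubiquitin ligases, their DCAF substrate receptors and the COP9 signalosome were followed in embryonic mouse heart as a family of 34 genes out of 18193 named on the array. The family holds Ddb1, Ddb2, Rbx1 and every gene whose symbol is Dcaf, Cul or Cops followed by a digit. Each gene was read from 1 probe set, the brightest on average among those annotated to that gene alone, so the level chose the probe set and is given as a description only. Of the 34 members, 33 passed a filter on dim signal (a mean of at least 5.90 on the log2 scale) and were tested. Dcaf8l was left out of the tests, with values of 4.63, 2.40 and 2.98 in replicates 1 to 3 labelled wildtype and 4.59, 3.98 and 3.42 in those labelled Rhau KO.

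A cullin is the scaffold of a modular ubiquitin ligase. One end holds a RING protein such as RBX1, which recruits the ubiquitin-loaded enzyme, and the other end holds an adaptor and an exchangeable receptor that selects the protein to be marked. CUL4A and CUL4B use DDB1 as the adaptor and WD-repeat proteins, the DCAFs, as receptors. The small protein NEDD8 activates the cullin when attached to it, and the COP9 signalosome, a complex whose catalytic subunit is COPS5, takes it off again.

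The samples were whole hearts of C57BL/6 mouse embryos at E12.5, 3 labelled wildtype and 3 labelled Rhau KO, each hybridised to its own Affymetrix 3' array. Rhau is an older name of Dhx36, a helicase that unwinds G-quadruplexes, and the comparison asks which transcripts differ when it is deleted. Other alleles, the driver of the deletion and the deleted part of the gene are not given in the sources used here. Signals are MAS5 values on the log2 scale, and differences are labelled Rhau KO minus labelled wildtype.

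The arrays go against their labels in the targeted gene and differ in embryo sex and cell markers. Replicates 1 to 3 labelled wildtype read 8.99, 8.88 and 8.71 for Dhx36, and replicates 1 to 3 labelled Rhau KO read 10.10, 10.48 and 10.23, so the gene was higher under the knockout label (adjusted p = 1.46e-05, limma). Its other probe sets were higher there too, by 1.10 and 0.90, and on all 3 the groups did not overlap. All directions follow the labels as deposited, and an exchange of the labels would turn every one of them. Whether labels were exchanged, or these probe sets lie outside the deleted part, was not tested. Signal of 3 genes of the Y chromosome, Uty, Kdm5d and Eif2s3y, set on average against the array where each was highest, came to 1.23%, 2.04% and 39.3% in the replicates labelled wildtype. In those labelled Rhau KO it came to 59.6%, 82.8% and 100%. Xist ran the other way, at 100%, 98.0% and 77.2% and then 61.1%, 35.8% and 0.232%. Both signals were present together in 3 arrays, the third of the wildtype label and the first and second of the Rhau KO label. Whether those arrays held more than 1 heart was not tested. Cardiomyocyte markers were bright in both groups, with summed linear signals of 233961 to 244916 under the wildtype label against 203461 to 234988 under the Rhau KO label, and 2 of 8 were called lower. Of 7 measured erythroid markers 5 were called lower (summed signals 92791 to 99071 against 70953 to 88937), and 3 of 6 endothelial markers were called higher (8051 to 8934 against 9263 to 9942). Of 6 macrophage markers 2 were called higher (2244 to 2306 against 3172 to 3871) and 4 were not called. Most of the rise of the macrophage sum was that of Lyz2, higher by 2.98 on the log2 scale, while Mrc1 was higher by 0.43. Of all tested genes 8.2% were called higher and 10.8% lower. No marker of these 4 lists was at 0. In whole hearts, fewer cells of a type and less RNA per cell cannot be told apart, and the part of embryo sex or cell makeup in any difference was tested only where a value is given.

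In the family as a whole, 1 transcript was much lower in the arrays labelled Rhau KO and most others lay close to their wildtype level. Dcaf5 was 2.75-fold lower. Cops6, Dcaf15 and Cul1 were lower by 1.21-fold, 1.26-fold and 1.13-fold. In limma with Benjamini-Hochberg adjustment over all 12416 tested genes, 4 of 33 members were called lower at an adjusted p under 0.05 and 0 were called higher, while 10.8% of all tested genes were called lower and 8.2% higher. At an unadjusted p under 0.05 the counts were 5 lower and 2 higher, while 16.8% of all tested genes were lower and 15.8% higher at that threshold. The 4 members are 12.1% of those tested, a share near the background of lower calls, and the family was proposed with results of these data known. Differences lay within 0.25 on the log2 scale for 26 of 33 members, or 78.8%, and for 69.9% of all tested genes. The median difference was -0.0020 over the members and 0.01 over all tested genes. Groups did not overlap for 9 members, 27.3% of those tested, against 37.1% of all tested genes. The median SE was 0.075 over the members and 0.097 over all tested genes, and these shares were not matched for precision or signal level. The count of lower members was 2 without replicate 2 or replicate 3 labelled wildtype or replicate 3 labelled Rhau KO. Median centring moved the split over all genes from 1018 higher and 1336 lower to 576 and 1742.

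**Figure D1:**
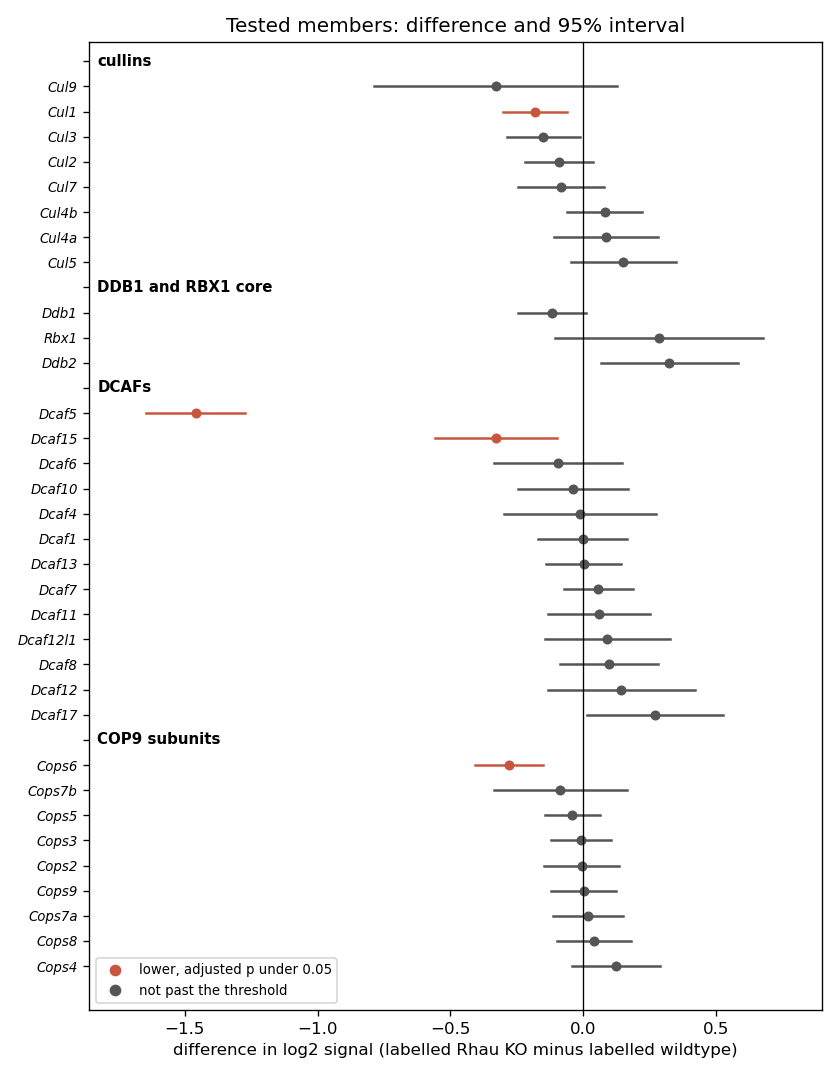
Difference in log2 signal (labelled Rhau KO minus labelled wildtype, horizontal axis) for the 33 tested members, grouped by role; points are differences of the means of 3 arrays each, and lines are limma's 95% intervals. Dcaf5 lies at -1.46, and every other member lies between -0.33 and 0.33.

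Dcaf5 encodes a WD-repeat receptor of the CUL4-DDB1 ligase, which in human cells takes part in the quality control of chromatin remodelling complexes. Its brightest probe set read 10.65, 10.88 and 10.57 in replicates 1 to 3 labelled wildtype and 9.25, 9.19 and 9.27 in replicates 1 to 3 labelled Rhau KO. All 3 arrays labelled Rhau KO lay below all 3 labelled wildtype, with a gap of 1.30 between the groups. The means were 10.70 ± 0.16 and 9.24 ± 0.04 (SD, n = 3 each), a difference of -1.46 (SE 0.085, 95% interval -1.65 to -1.27; limma adjusted p = 4.12e-06). By size of the decrease Dcaf5 ranked 25 of the 12416 tested genes.

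The fall of Dcaf5 was also present on its other probe sets. The brightest probe set carries a name suffix that marks probes shared between transcripts, while the others do not. The second read 9.49, 9.70 and 9.17 under the wildtype label against 8.52, 7.37 and 7.80 under the Rhau KO label, a difference of -1.56 (SE 0.24, adjusted p = 0.00227 in the limma fit of every probe set). The third read 8.86, 8.79 and 8.88 against 7.53, 7.89 and 7.82, a difference of -1.10 (adjusted p = 0.000302 in that fit). On both, each array labelled Rhau KO lay below each labelled wildtype. The fourth was lower by 1.86-fold, with 7.32, 6.998 and 7.03 against 6.52, 6.07 and 6.07 (adjusted p = 0.0193 in that fit). The dimmest probe set lay below the filter on mean signal, at 5.87, 5.61 and 6.36 against 5.44, 6.01 and 5.33, and its groups overlapped. In the fit of every probe set 14.6% of 22796 probe sets were called, and 8 of the 61 tested member probe sets (13.1%), of which 4 are those of Dcaf5.

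**Figure D2:**
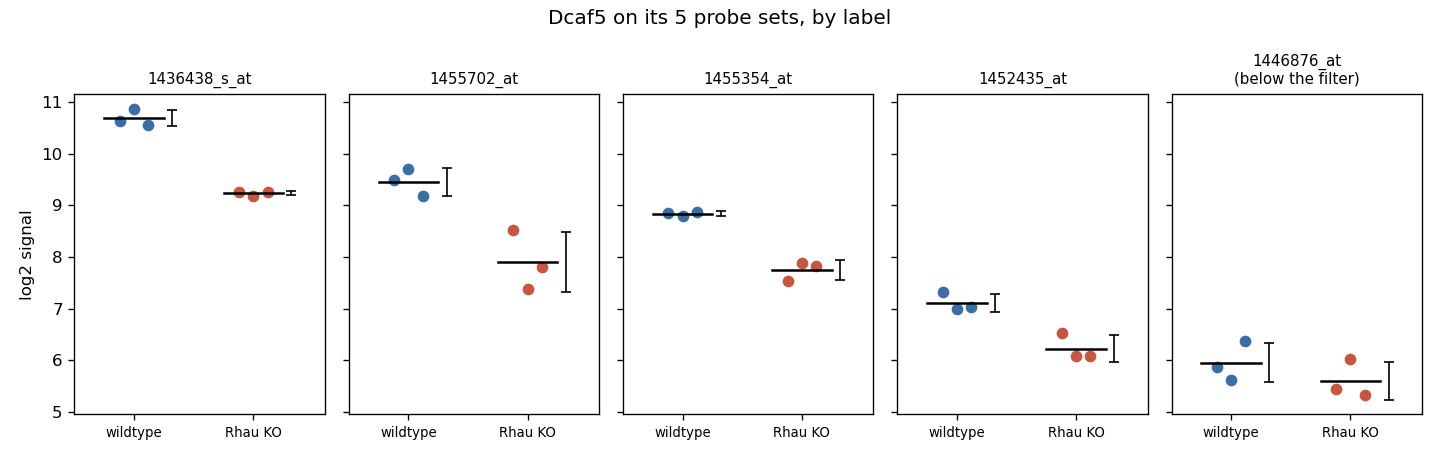
Log2 signal of Dcaf5 (vertical axis) on each of its 5 probe sets, in the 3 arrays labelled wildtype and the 3 labelled Rhau KO; points are arrays, bars are means, and error bars are 1 SD. The groups are apart on the 4 probe sets above the filter, and they overlap on the dimmest.

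The Dcaf5 difference was present with either measure of embryo sex in the fit. It stood at -1.29 (95% interval -1.70 to -0.88, adjusted p = 0.0111, limma) with Y-linked signal as a covariate and at -1.41 (adjusted p = 0.00193, limma) with Xist signal as a covariate. Both measures ran largely with the labels, so these fits separate sex from label poorly. Of all tested genes 1.43% were called with the Y-linked and 3.17% with the Xist covariate, against 19.0% without. Replicate 3 labelled wildtype, which carried Y-linked signal at 39.3% of the highest array, read 10.57 for Dcaf5. Replicates 1 to 3 labelled Rhau KO read 9.25, 9.19 and 9.27 for Dcaf5, and 9.02, 9.62 and 10.16 for Alas2, an erythroid enzyme of heme synthesis. The part of red cell content in the Dcaf5 difference was not tested. Leaving out each array in turn left Dcaf5 between -1.52 and -1.37.

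Promoter sequences of the 4 lower members are shown because the helicase named in the labels is known for G-quadruplexes. The windows are RefSeq's on build GRCm38.p6, 250 bases before to 50 after a gene start, on the strand of the gene. The motif searched was 4 runs of at least 3 G separated by 1 to 7 bases of any kind, on both strands, and its matches are in capitals. Dcaf5 is on the minus strand at chr12:80436552-80436851, Cul1 on the plus strand at chr6:47454069-47454368, Cops6 on the plus strand at chr5:138160852-138161151 and Dcaf15 on the minus strand at chr8:84104748-84105047. The Cul1 window is the 1 of its 3 that holds a match.
Dcaf5: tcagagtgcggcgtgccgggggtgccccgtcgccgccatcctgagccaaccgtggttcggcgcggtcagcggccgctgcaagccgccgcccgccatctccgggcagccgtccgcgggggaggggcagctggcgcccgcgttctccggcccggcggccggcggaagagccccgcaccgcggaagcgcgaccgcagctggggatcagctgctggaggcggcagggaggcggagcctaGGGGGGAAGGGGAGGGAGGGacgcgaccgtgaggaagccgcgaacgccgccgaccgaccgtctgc
Cul1: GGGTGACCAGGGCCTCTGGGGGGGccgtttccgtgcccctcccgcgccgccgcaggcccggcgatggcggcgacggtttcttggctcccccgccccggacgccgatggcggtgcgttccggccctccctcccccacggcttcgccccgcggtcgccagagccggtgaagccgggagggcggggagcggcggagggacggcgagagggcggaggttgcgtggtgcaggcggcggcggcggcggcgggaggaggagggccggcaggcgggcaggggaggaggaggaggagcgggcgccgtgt
Cops6: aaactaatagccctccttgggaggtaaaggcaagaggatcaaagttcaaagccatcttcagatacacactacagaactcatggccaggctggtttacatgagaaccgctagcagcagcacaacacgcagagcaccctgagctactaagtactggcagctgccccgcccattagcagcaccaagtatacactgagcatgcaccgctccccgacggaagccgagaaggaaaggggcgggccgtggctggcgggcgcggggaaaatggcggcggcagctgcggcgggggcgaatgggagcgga
Dcaf15: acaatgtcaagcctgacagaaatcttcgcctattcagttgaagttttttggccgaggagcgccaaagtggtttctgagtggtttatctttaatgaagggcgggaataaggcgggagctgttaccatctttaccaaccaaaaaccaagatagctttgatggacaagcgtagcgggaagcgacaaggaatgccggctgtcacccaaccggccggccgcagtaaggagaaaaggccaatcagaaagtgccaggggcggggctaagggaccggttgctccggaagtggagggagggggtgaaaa
In Dcaf5 a match of 20 bases on the strand of the gene runs from 15 bases before the start to base 5 after it. In Cul1 a match of 24 bases lies at the far upstream end of the window, and the windows of Cops6 and Dcaf15 hold none. The Cul1 match has 3 separate stretches of G, the last counted as more than 1 run with a G as the separating base. Of the 29 members with a window, 7 held a match in at least 1 window (24.1%), against 20.4% of the 27025 genes in the table. The others were Cul3, Dcaf6, Dcaf12, Dcaf17 and Rbx1, none of which was called. The TATA-box letters TATAAA, on either strand, were in the window of 1 member, or 3.45% of members, against 15.7% of genes. Counted by window, 19.4% of member windows held a G-run match, against 18.6% of all windows. The median GC content was 59.3% in member windows and 52.7% in all windows, and no share was matched for it. A match is a run of letters and does not show a folded structure or binding.

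Next to Dcaf5 on chromosome 12 in the RefSeq order, none of the 3 nearest tested genes on either side was called lower. The share called lower over all tested genes was 10.8%. Actn1, which encodes a non-muscle actinin, lay next to Dcaf5 and was higher by 0.44. Exd2, its neighbour on the other side, differed by -0.10 without a call, and Zfp36l1, 2310015A10Rik, Galnt16 and Slc39a9 differed by 0.01, 0.41, -0.32 and -0.04, also without a call. These genes are named by their place.

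The other DCAF receptors showed small differences. Dcaf15, the receptor through which aryl sulfonamide drugs mark a splicing factor for destruction in human cells, read 9.09, 9.41 and 9.33 under the wildtype label against 9.07, 8.85 and 8.92 under the Rhau KO label. The groups did not overlap, but replicate 1 of each label lay only 0.02 apart. The difference of -0.33 (SE 0.10, limma adjusted p = 0.0498) passed the threshold narrowly, on its only probe set. Without replicate 2 or 3 labelled wildtype the Dcaf15 difference was -0.26 or -0.30 and no longer passed (adjusted p = 0.169 and 0.135, limma). Without replicate 2 or 3 labelled Rhau KO it was -0.28 or -0.31 (adjusted p = 0.136 and 0.106, limma). The call was also lost with Y-linked or Xist signal as a covariate, at -0.29 and -0.26. With those covariates 1.43% and 3.17% of all tested genes were called, against 19.0% without.

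Dcaf17, mutated in the human Woodhouse-Sakati syndrome, had the highest positive difference of the 13 tested DCAFs and was not called. It read 8.57, 8.36 and 8.21 under the wildtype label against 8.70, 8.70 and 8.56 under the Rhau KO label, with overlapping groups and a difference of 0.27 (limma adjusted p = 0.131). A second Dcaf17 probe set did pass in the fit of every probe set, at 8.14, 8.16 and 8.30 against 8.68, 8.42 and 8.89 (difference 0.46, limma adjusted p = 0.0392), and the third stood at 0.07. With Y-linked signal as a covariate Dcaf17 stood at 0.62 without a call.

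The remaining 10 tested DCAFs did not pass and their groups overlapped on the probe sets used. Of all tested genes 19.0% were called, and groups did not overlap for 37.1%. Dcaf1, the receptor that the HIV protein Vpr takes over in human cells, had means of 10.05 ± 0.11 and 10.05 ± 0.07 (SD, n = 3 each). Dcaf13, a nucleolar protein needed for ribosome assembly, had means of 11.21 ± 0.02 and 11.21 ± 0.12. Dcaf7, a scaffold of the DYRK1A kinase, differed by 0.06 with a 95% interval of -0.07 to 0.19. Dcaf4, Dcaf10 and Dcaf6 differed by -0.01, -0.04 and -0.09, and Dcaf8, Dcaf11, Dcaf12 and the X-linked Dcaf12l1 by 0.10, 0.06, 0.14 and 0.09. Over these and Dcaf17 the 95% intervals reached from -0.34 to 0.53, so a difference the size of that of Dcaf5 lies outside each of them. Some dimmer probe sets went otherwise, though none of these genes passed in the fit of every probe set. A second one of Dcaf12 stood at -0.29 and of Dcaf11 at -0.13, with all arrays labelled Rhau KO below. One of Dcaf7 stood at 0.39 with all of them above, and one of Dcaf12l1 at 0.52 with overlapping groups.

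**Figure D3:**
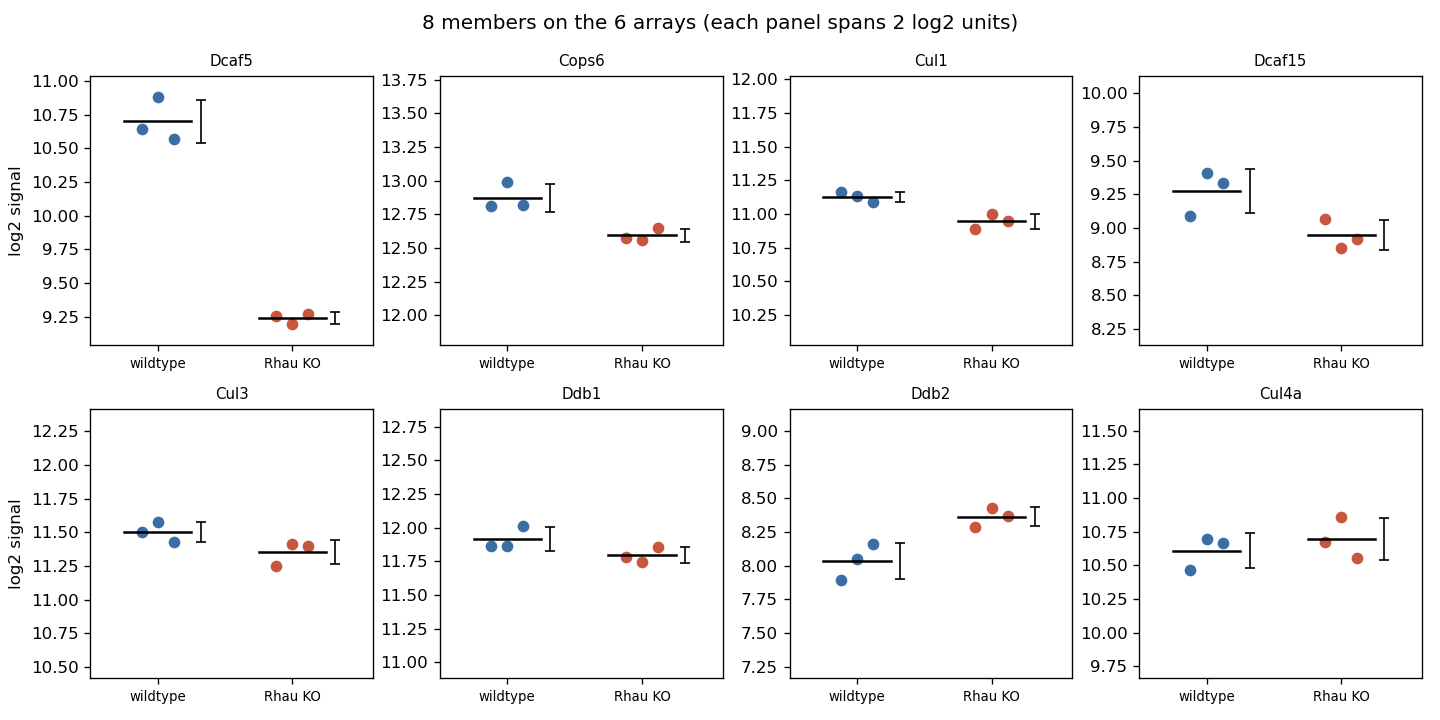
Log2 signal (vertical axis, each panel spanning 2 log2 units) of 8 members in the 3 arrays labelled wildtype and the 3 labelled Rhau KO; points are arrays, bars are means, and error bars are 1 SD. Dcaf5 spans most of its panel, Cops6, Cul1 and Dcaf15 are apart by a small gap, and the groups of Cul4a overlap. Those of Cul3, Ddb1 and Ddb2 are apart as well. The 8 were picked for display, and groups did not overlap for only 9 of the 33 tested members (27.3%).

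The core of the CUL4 ligase did not pass the test in either direction. Ddb1, the adaptor that links DCAFs to CUL4, read 11.86, 11.86 and 12.02 under the wildtype label against 11.78, 11.75 and 11.86 under the Rhau KO label, a difference of -0.12 (95% interval -0.25 to 0.01, limma adjusted p = 0.190). The groups of Ddb1 touched without overlapping. Cul4a differed by 0.09 and the X-linked Cul4b by 0.08, with 95% intervals of -0.11 to 0.28 and -0.06 to 0.22. On a dimmer probe set Cul4b stood at -0.10, with overlapping groups and no call. Ddb2, the receptor that recognises ultraviolet damage in DNA, was at 7.90, 8.05 and 8.16 under the wildtype label against 8.29, 8.43 and 8.37 under the Rhau KO label. All arrays labelled Rhau KO were above those labelled wildtype for Ddb2, yet the difference of 0.33 did not pass (limma adjusted p = 0.0765), and it stood at 0.08 with Y-linked signal as a covariate. A second, dimmer Ddb2 probe set stood at 0.16 with overlapping groups and did not pass in the fit of every probe set.

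Rbx1, the RING subunit shared by most cullin ligases, was read from a dim probe set at 6.97, 7.20 and 7.08 against 7.15, 7.63 and 7.32. The groups overlapped and the difference of 0.29 was not called (95% interval -0.11 to 0.68). The annotation gives 5 other probe sets to both Rbx1 and its pseudogene Rbx1-ps, which the choice of members leaves out. The brightest of these read 13.08, 13.09 and 13.08 under the wildtype label against 13.17, 13.10 and 13.17 under the Rhau KO label.

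Among the cullins 1 of 8 was called lower, beside 10.8% of all tested genes. Cul1, the scaffold of the SCF ligases, read 11.16, 11.14 and 11.09 in the arrays labelled wildtype and 10.89, 11.00 and 10.95 in those labelled Rhau KO. The groups were apart by 0.08, and the difference of -0.18 (SE 0.054) had a limma adjusted p of 0.0406 on its only probe set. The Cul1 call was lost without replicate 1, 2 or 3 labelled wildtype, at -0.17, -0.18 and -0.20, and without replicate 1 or 3 labelled Rhau KO, at -0.15 and -0.18. It was also lost with Y-linked or Xist signal as a covariate, at -0.17 and -0.19, and with the replicate number as a block (adjusted p = 0.0583, limma). With the Y-linked and Xist covariates 1.43% and 3.17% of all tested genes were called, against 19.0% without.

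Cul3, the scaffold that works with BTB-domain receptors, gave different answers on its 5 probe sets. The brightest read 11.50, 11.58 and 11.43 against 11.25, 11.41 and 11.40, a difference of -0.15 without a call (limma adjusted p = 0.121). In the fit of every probe set 2 dimmer ones passed, at -0.31 and -0.40, and the other 2 stood at -0.01 and 0.07. Median centring of the arrays brought the brightest past the threshold. For the other cullins no call was made. Cul5, which works with SOCS-box receptors, differed by 0.15, Cul2, which works with VHL, by -0.09 and Cul7 by -0.08. On a dimmer probe set Cul2 stood at 0.11, with overlapping groups and no call. Cul9, a large cullin that binds p53, was dim at 6.86, 6.83 and 7.02 against 6.27, 6.80 and 6.64, and its difference of -0.33 had the widest interval of the cullins, -0.79 to 0.13.

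Of 9 tested COP9 signalosome subunits 1 was called lower, or 11.1%, beside 10.8% of all tested genes. Cops6, the catalytically inactive partner of COPS5, read 12.81, 12.99 and 12.82 under the wildtype label against 12.58, 12.56 and 12.65 under the Rhau KO label. The groups were apart by 0.16, and the difference of -0.28 (SE 0.058, 95% interval -0.41 to -0.15) had a limma adjusted p of 0.00776. The other Cops6 probe set was lower on each array labelled Rhau KO as well, at 7.50, 7.66 and 7.64 against 7.28, 7.19 and 7.17, and did not pass in the fit of every probe set (limma adjusted p = 0.0971). The Cops6 call held when any 1 array was left out, between -0.31 and -0.22. It was lost with Y-linked signal in the fit (-0.25, limma adjusted p = 0.428), with Xist signal in the fit (-0.32, limma adjusted p = 0.173) and with eBayes without trend (adjusted p = 0.0616, limma). With Y-linked and Xist signal in the fit 1.43% and 3.17% of all tested genes were called, against 19.0% without.

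The 8 other measured COP9 subunits were not called, and their groups overlapped. Groups did not overlap for 11.1% of the 9 tested subunits, against 37.1% of all tested genes. Cops5, the enzyme that removes NEDD8, had means of 12.27 ± 0.05 and 12.23 ± 0.03 (SD, n = 3 each) and a difference of -0.04 with a 95% interval of -0.14 to 0.06. A dim Cops5 probe set below the filter read 4.72, 4.05 and 5.26 against 5.55, 6.19 and 6.18. It gave Cops5 a call in the opposite direction when all probe sets of a gene were averaged (0.63, limma adjusted p = 0.0345). Cops2, Cops3, Cops9 and Cops7a differed by no more than 0.02 in size, and Cops8 by 0.04. Cops4 differed by 0.12 and Cops7b by -0.09. Over the 8 subunits the 95% intervals reached from -0.34 to 0.29. Cops6 and Cops5 sit in 1 complex, and whether the difference of Cops6 departs from those of its partners was not tested.

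**Figure D4:**
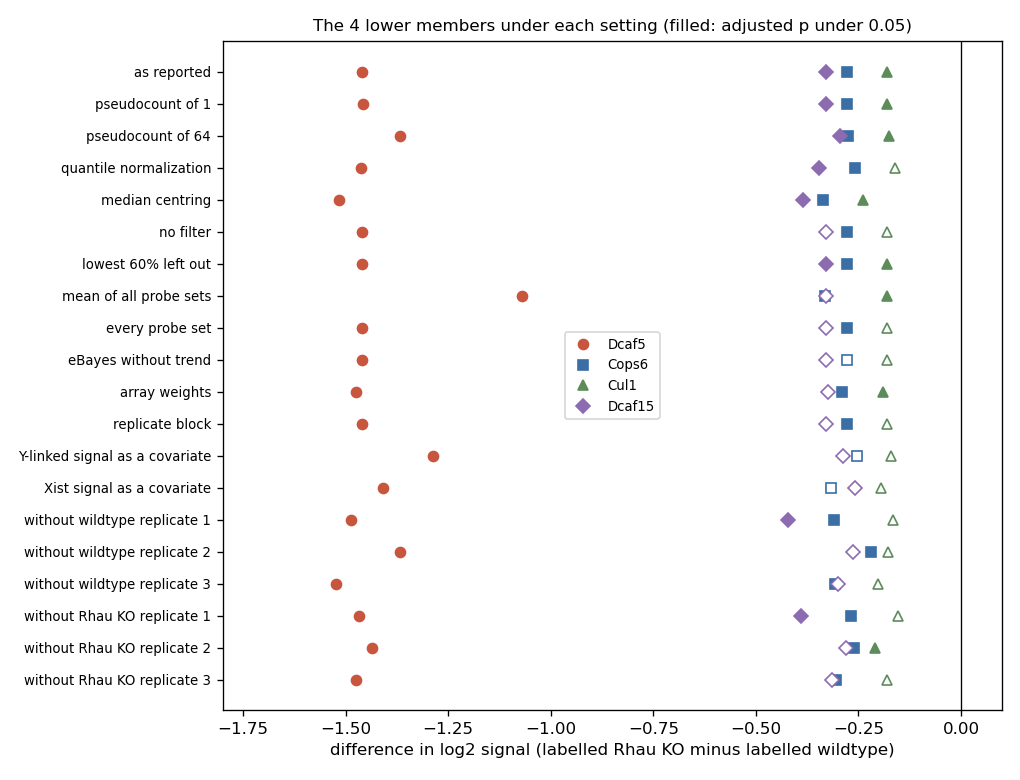
Difference in log2 signal (labelled Rhau KO minus labelled wildtype, horizontal axis) of the 4 lower members under each way of processing (vertical axis); filled symbols passed an adjusted p under 0.05 and open ones did not. Dcaf5 is filled throughout, while Cops6 is open in 3 settings and Cul1 and Dcaf15 in 12 each.

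Other genes of the pathway were taken from 8 lists of known partners, of which 73 of 75 genes were measured. Of these 13 were called higher and 5 lower, or 24.7%, beside 19.0% of all tested genes, with a median difference of 0.01. None reached 1.5-fold. Among 13 measured neddylation genes, Cand2, a cullin exchange factor of muscle, rose by 0.26 (limma adjusted p = 0.00703) and Senp8, the protease that processes NEDD8, by 0.36 (0.0410), while 11 did not pass. Neither of the other COP9-associated genes passed: Gps1, which encodes its first subunit, differed by 0.04 and Usp15, a deubiquitinase bound to the complex, by -0.03. Of 12 DDB1-linked receptors and cofactors without a Dcaf symbol, Brwd1 rose by 0.31 and Dtl, the receptor for the replication factor CDT1, by 0.26, and 10 did not pass. With its probe sets averaged Brwd1 stood at -0.011 without a call.

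Receptors of the other cullins went in both directions, and their counts stand beside 8.2% of all tested genes called higher and 10.8% called lower. Of 10 SCF genes 3 rose and 0 fell: Skp2, which marks cell cycle inhibitors for degradation, rose by 0.38, Fbxl5, an iron sensor, by 0.28 and Fbxw7, a receptor for phosphorylated cyclin E and Notch, by 0.28. Of 15 CUL2 and CUL5 adaptors and receptors 2 rose and 4 fell. Asb2, a muscle receptor for filamins, read 12.65, 12.60 and 12.49 under the wildtype label against 12.15, 11.91 and 12.05 under the Rhau KO label, a fall of 1.46-fold (limma adjusted p = 0.000389). Wsb1 rose from 11.24, 11.46 and 11.30 to 11.97, 12.02 and 11.59, a difference of 0.52, while its relative Wsb2 fell from 11.80, 11.69 and 11.76 to 11.43, 11.31 and 11.28, a difference of -0.41. Both pairs of groups were apart. Asb4 fell by 0.26. Of 13 BTB receptors of CUL3, Klhl13, Rhobtb3 and Klhl9 rose by 0.28, 0.20 and 0.18 and 0 fell. Of 3 CUL7 partners Obsl1 rose by 0.18. Of 5 CRL4 substrates Cdkn1a, a cell cycle inhibitor, fell by 0.47 (adjusted p = 0.0153, limma), and Cdt1, Kmt5a, Xpc and Pcna did not pass.

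Not all calls in these lists were kept when an array was left out. Those of Cand2, Brwd1, Skp2, Asb2, Wsb1, Wsb2 and Klhl13 were kept without any 1 array. Senp8, Dtl, Klhl9, Rhobtb3 and Obsl1 were each called in 1 of the 6 such fits, Fbxl5 in 2, Asb4 in 3, Cdkn1a in 4 and Fbxw7 in 0, with the highest limma adjusted p for each between 0.060 and 0.150. With all probe sets of a gene averaged, the calls of Wsb2 (-0.11), Cand2 (0.13), Cdkn1a (-0.22) and Obsl1 (-0.11, the opposite direction) were lost. Those of Senp8, Dtl, Asb4 and Rhobtb3 were also lost then, at differences between -0.21 and 0.39. Fbxl5 has 1 probe set, so averaging did not change its values, yet its call was lost in that fit too. There 12.4% of all tested genes were called. With Y-linked signal as a covariate none of the named genes of the lists was called, beside 1.43% of all tested genes. Under that covariate Wsb1 stood at 0.84, Asb2 at -0.31, Skp2 at 0.22 and Brwd1 at 0.42.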

How the data were processed

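Biotin-labelled material from E12.5 mouse hearts was measured on Affymetrix expression arrays (per the labels' protocols). The table, as deposited, has log2 signals of 45101 probe sets on 6 arrays, made with MAS5 by the authors, per the submitters' processing notes, with no version named there. The 2% trimmed mean of the linear values was 500 on each array, so each had been scaled globally, and values were used as deposited. Log2 medians lay between 6.68 and 6.80. All 6 columns were matched by label. Array data carry no read depth, and 3 arrays per group limit the precision. Nothing states that the hearts came from separate litters, so p-values measure the spread between these arrays.

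Control probe sets (64) were left out. The platform annotation, checked by Entrez identifier against RefSeq (GRCm38.p6, 34741 of 34945 found), names 1 gene for 34945 probe sets, several for 932 and none for 9160. Each gene took its probe set of highest mean. Genes whose probe set lay in the lowest 40% of all remaining probe sets by mean signal were left out. The groups were compared with limma 3.58.1 in R 4.3.3 (lmFit, eBayes with trend), two-sided, with Benjamini-Hochberg adjustment over 12416 genes and a threshold of 0.05. The procedure was tested on simulated data. Every member is named; from each partner list up to 4 called genes of largest change are named, or the 2 brightest. Neighbours of Dcaf5 are named by place. Members, lists, tests and alternatives were chosen with earlier results of these data known. Same-numbered arrays of the 2 labels did not deviate together (correlations -0.01 to 0.04 across genes), so the numbers were not taken as pairs. Of the 75 genes on the partner lists, 2 were not analysed here. Python 3.11.15, pandas 2.3.3 and matplotlib 3.10.9 served for joins and plots.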

Additional observations from a re-analysis of the deposited data

How the results depend on the processing

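Dcaf5 was called lower under all 19 other settings, between -1.52 and -1.07 on the log2 scale. The count of lower members, 4 as reported, was 5 with median centring. It was 3 with quantile normalization, with averaged probe sets or with limma's array weights. It was 2 with no filter, 2 with every probe set tested and 2 with the replicate block. It was 1 with eBayes without trend, 1 with Y-linked signal and 1 with Xist signal as a covariate, and 2 to 3 when 1 array was left out. The replicate block gave 955 higher and 1300 lower over all genes. The count of higher members was 1 with averaged probe sets and 0 when 1 array was left out. Over all genes, as reported 1018 higher and 1336 lower, averaged probe sets gave 608 and 824, eBayes without trend 614 and 878, the Y-linked covariate 46 and 132, the Xist covariate 108 and 286, and median centring 576 higher. Leaving out 1 array gave 590 to 802 higher and 916 to 1206 lower. Averaged probe sets turned Cops5 to 0.63, Brwd1 to -0.011 and Obsl1 to -0.11. The cause was not tested, except that averaging brings in dimmer probe sets and that a filter or every probe set alters how many are tested. No symbol differed between the annotation and RefSeq, so that alternative could change nothing. For dim probe sets signal over background was not measured.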
